A study of Mus musculus with 8 samples.

Results

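The genes described here are Zbp1 and the genes of the necroptosis switch around it: Zbp1, Ripk1, Ripk3, Mlkl, Casp8, Fadd and Cflar. All probe sets that the array annotation gives to one of these 7 symbols were taken, whatever their level. They came to 12 probe sets of 45037 tested and to 6 genes of 18193. Ripk1 has no probe set of its own in the annotation used, so its transcript was not analysed here. The study hybridised 8 Affymetrix whole-genome mouse arrays, each with RNA from the haematopoietic stem cell fraction of 1 mouse of an ADAR1 model. ADAR1, encoded by Adar, is an enzyme that edits adenosine to inosine in double-stranded RNA.

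The arrays fall into 3 genotypes: wild type (2 mice), heterozygous for the ADAR1 mutation (3 mice) and ADAR1 null (3 mice). All mice are labelled C57/B6, and all cells were sorted from fetal liver as lineage-negative, Sca-1-positive and Kit-positive (Lin-Sca+Kit+). The labels do not state the fetal age or which part of Adar was removed. An Adar probe set therefore does not check the genotypes. Arrays are numbered within a genotype in order of deposit, and the numbers pair nothing between genotypes.

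Necroptosis is a lytic form of cell death. Zbp1 binds nucleic acid in the left-handed Z form, and it recruits the kinase Ripk3 through a shared protein motif, the RHIM. Ripk3 phosphorylates Mlkl, which then ruptures the plasma membrane. Ripk1 carries the same motif and links death receptors to Ripk3, while a complex of Fadd, the protease caspase-8 (Casp8) and its catalytically inactive relative cFLIP (Cflar) cuts the kinases and holds the pathway in check. ADAR1 has a domain that binds Z-form nucleic acid as well.

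Levels below are the deposited intensities, on a linear scale, and differences are on the log2 scale with the standard error (SE) of the fit. The background of an array is the brightest of its 27 probe sets for Bacillus transcripts, and it lay between 6.20 and 9.29. Among the 5 control arrays, 45.6% to 61.2% of probe sets were above background, and among the 3 null arrays 40.0% to 46.4%. The ratio of 3' to 5' Gapdh probe sets is a measure of RNA or amplification quality. It was 4.39 and 4.32 in wild type, 5.78, 4.78 and 9.0 in heterozygous and 7.45, 8.73 and 7.67 in null cells. Every null array thus lay above both wild type arrays and above heterozygous arrays 1 and 2, and below heterozygous array 3. The part of array quality in the results was not tested. Of the genes used in the sort, Kit was 9.33 to 23.5 over the 8 arrays and Ly6a, which encodes Sca-1, has no probe set of its own in the annotation used. Cd34, a progenitor marker, was 13.8 to 32.2. Null arrays were compared with all 5 control arrays together, with wild type and with heterozygous arrays, and these comparisons share samples. A probe set passed at a limma p under 0.05 after Benjamini-Hochberg adjustment over all 45037 probe sets.

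Zbp1 and Mlkl, the sensor and the executioner, rose in null cells against all controls. By its brightest probe set, Zbp1 also rose against each control genotype. Those calls were lost in 11 of 17 alternative settings against wild type and in 5 of 17 against heterozygous cells. The Mlkl call against all controls was lost in 8 of 16. Ripk3, Casp8, Fadd and Cflar did not pass in any comparison. Of the 12 member probe sets, 2 passed as higher and 0 as lower in null against all controls, where 0.329% of all tested probe sets passed as higher and 0.253% as lower. Counted by the brightest probe set of each gene, 2 of the 6 genes passed, against 0.555% of all genes. The median difference over the 6 genes was 0.94, and over all genes it was 0.03.

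**Figure D1:**
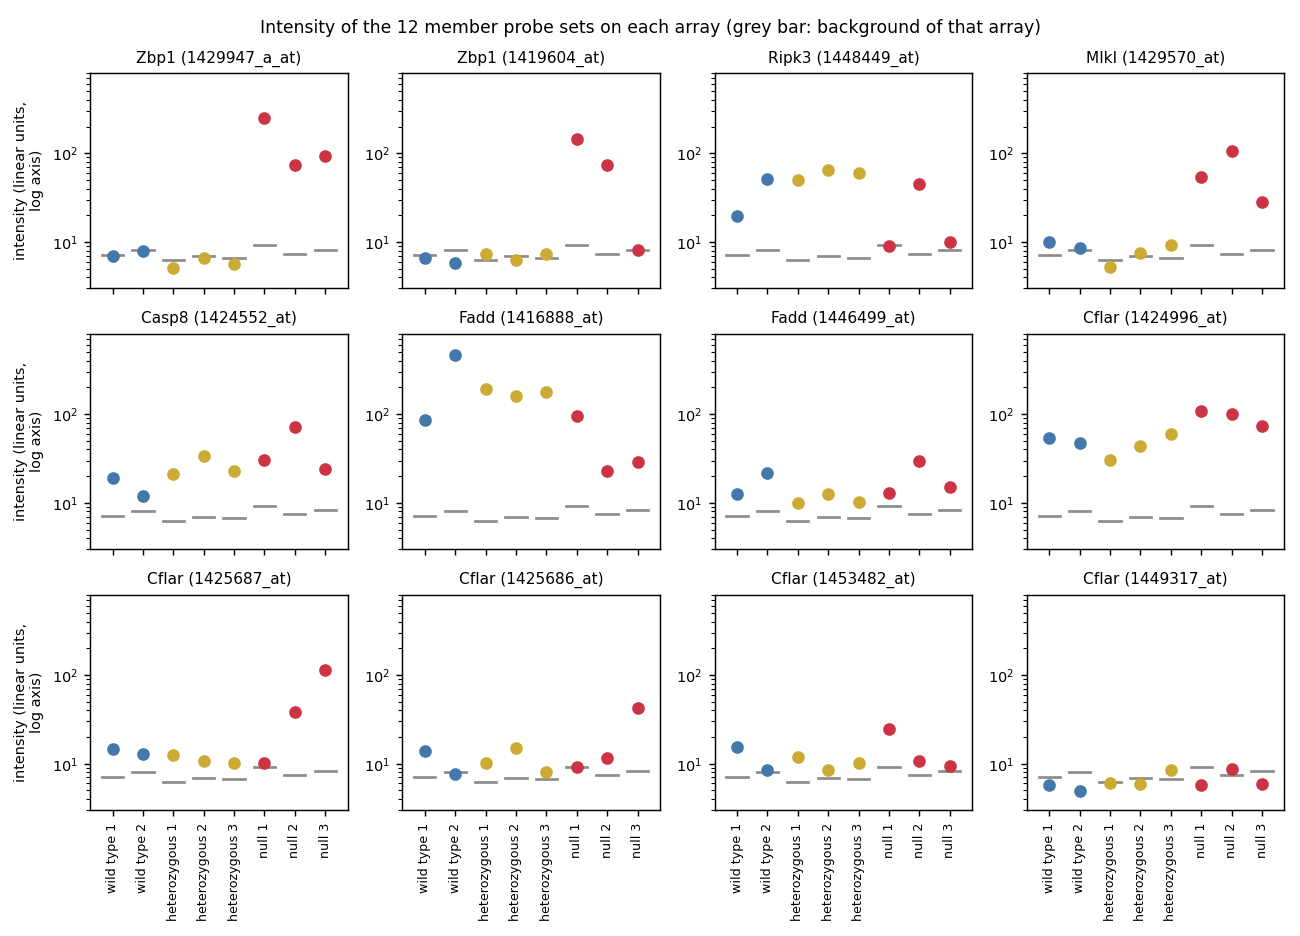
Intensity (log axis) of the members' probe sets on each array, by genotype, with each array's background level as a grey bar (blue, wild type; yellow, heterozygous; red, null). Zbp1 lies at background on all 5 control arrays and at 73.3 to 251 on the null arrays by its brightest probe set, while the null points of Ripk3, Casp8 and Fadd overlap those of the control arrays.

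Zbp1 (probe set 1429947_a_at, its brightest) read 6.94 and 7.85 on the wild type arrays. It read 5.16, 6.66 and 5.69 on the heterozygous arrays, and 251, 73.3 and 92.3 on the null arrays. All 5 control values lay at or below the background of their own array, and every null value lay far above it. The difference of null from all controls was 4.22 ± 0.38 (SE, 95% interval 3.34 to 5.11), with a limma adjusted p of 0.00320. Because the controls lay at background, this is a bound: Zbp1 was at least 17.1-fold higher in null cells. In bulk RNA, fewer cells that make a transcript and less of it per cell cannot be told apart.

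Against wild type alone Zbp1 was at least 15.7-fold higher (4.02 ± 0.49, limma adjusted p 0.0373). Against heterozygous cells it was at least 18.1-fold higher (4.36 ± 0.44, limma adjusted p 0.0149). In these comparisons 1 of 12 member probe sets passed as higher, where 0.22% of all probe sets did so against wild type and 0.262% against heterozygous. The comparison with all controls held with any 1 array left out, at limma adjusted p between 0.000745 and 0.0174, and ended when 32 was added to every intensity before the logarithm (2.01, limma adjusted p 0.0585). The comparison with wild type was lost without either wild type array (0.0935 and 0.101), without heterozygous array 1, 2 or 3 (0.107, 0.105 and 0.116) and without null array 3 (0.0618), all as limma adjusted p. It was also lost with quantile (0.0607) or cyclic loess normalization (0.0533), with 32 added (0.276), with the mean of the probe sets (0.128) and with only the compared arrays (0.344). That with heterozygous cells was lost without heterozygous array 1, 2 or 3 (limma adjusted p 0.0881, 0.0758 and 0.0841), with 32 added (0.147) and with the mean of the probe sets (0.0639).

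The other Zbp1 probe set (1419604_at) read 6.52 and 5.76 in wild type and 7.27, 6.18 and 7.24 in heterozygous cells. It read 146, 74.6 and 8.21 in null cells. Null arrays 1 and 2 lay far above the controls, while null array 3 read at its own background level and only just above the controls. The probe sets therefore differed on 1 array: the brightest minus the second was 0.79 and -0.02 on a log2 scale on null arrays 1 and 2, and 3.49 on null array 3. The difference of this probe set from all controls was 2.77 ± 0.81 and did not pass (limma adjusted p 0.260). Without null array 3 it was 3.99 and passed, with a limma adjusted p of 0.00128. The sequences of the 2 probe sets were not compared with transcripts here.

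Mlkl, the pseudokinase that permeabilises the membrane (1429570_at), read 10.1 and 8.5 in wild type cells. It read 5.22, 7.43 and 9.29 in heterozygous cells, and 53.4, 107 and 28.3 in null cells. Every null array lay above every control array, and the control values lay near background, above it on 4 of 5 arrays. The difference from all controls was 2.78 ± 0.41 (SE, 95% interval 1.82 to 3.74), a 6.88-fold higher level, with a limma adjusted p of 0.0349.

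The separate comparisons of Mlkl with wild type (2.56 ± 0.53, limma adjusted p 0.212) and with heterozygous cells (2.93 ± 0.48, limma adjusted p 0.0785) did not pass. The latter did pass with quantile (0.0394) or cyclic loess normalization (0.0447), the filter at the median level (0.0461) or the mean of probe sets (0.0477), and without null array 2 (0.0484) or 3 (0.0341), all as limma adjusted p. The Mlkl call against all controls was lost without either wild type array (0.0720 and 0.0723), without heterozygous array 1, 2 or 3 (0.0917, 0.107 and 0.0940) and without null array 1 (0.0890), and also with array weights (0.0546) or with 32 added (0.157), all as limma adjusted p. It was kept without null array 2 or null array 3, the lower of these limma adjusted p values being 0.0107. The direction of the difference was the same in every setting tried.

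**Figure D2:**
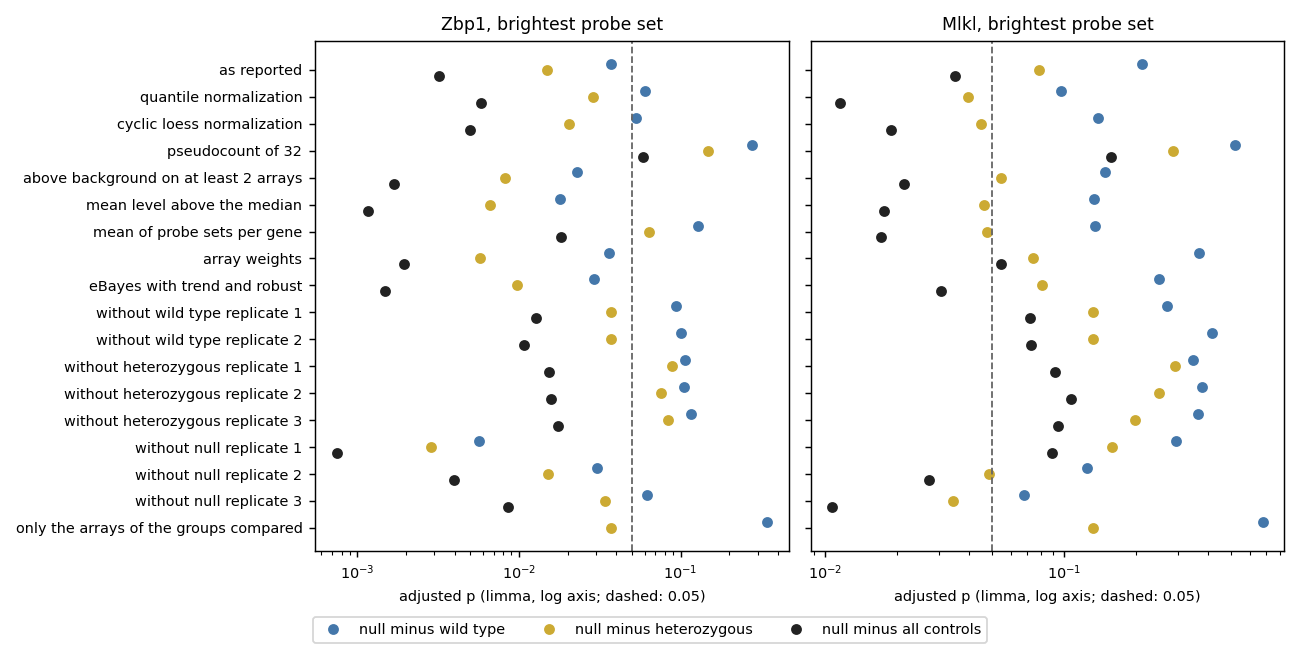
Limma adjusted p (log axis) of the brightest Zbp1 and Mlkl probe sets under each processing setting, for null against wild type, heterozygous and all controls; the dashed line is 0.05. The Zbp1 points for all controls lie left of the line except with 32 added to the intensities, and the Mlkl points cross it when most single arrays are left out.

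Ripk3, the kinase between Zbp1 and Mlkl (1448449_at), read 19.9 and 51.1 in wild type cells. It read 49.6, 64.1 and 60.1 in heterozygous cells, and 9.0, 44.9 and 9.99 in null cells. Null arrays 1 and 3 lay below every control, with null array 1 below its own background, and null array 2 lay within the range of the wild type arrays. The difference from all controls was -1.51 ± 0.61 (95% interval -2.92 to -0.11) and did not pass (limma p 0.0377, adjusted p 0.410). Against wild type it was -1.0 ± 0.74 (limma adjusted p 0.815), and against heterozygous cells -1.86 ± 0.66 (limma adjusted p 0.386). Every null array lay below every heterozygous array. Of the 12 member probe sets, 2 lay that way (Ripk3 and the brighter Fadd probe set) and 5 the other way, against 9.28% and 12.2% of all probe sets.

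Fadd, the adaptor that brings caspase-8 to the complex (1416888_at), read 86.1 and 462 in wild type cells. It read 191, 161 and 179 in heterozygous cells, and 95.2, 23.1 and 28.5 in null cells. Null arrays 2 and 3 lay below every control, while null array 1 lay above the lower wild type array. The difference from all controls was -2.22 ± 0.62 (95% interval -3.65 to -0.80) with a limma p of 0.00721, which did not pass (adjusted p 0.236). The second Fadd probe set (1446499_at) differed in the other direction, 0.48 ± 0.35 (limma adjusted p 0.614), so no direction is given for the gene.

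Casp8, the protease that cuts the Ripk kinases (1424552_at), read 18.9 and 11.9 in wild type cells. It read 21.3, 33.8 and 23.1 in heterozygous cells, and 30.2, 71.6 and 24.4 in null cells. The null arrays lay above both wild type arrays and overlapped the heterozygous ones. Every heterozygous array also lay above both wild type arrays. Against wild type, 5 of the 12 member probe sets had every null array higher and 0 had every null array lower, where 9.2% and 10.4% of all probe sets did. The Casp8 difference was 0.86 ± 0.43 from all controls (95% interval -0.12 to 1.85, limma adjusted p 0.487), 1.32 ± 0.49 from wild type (limma p 0.0312, adjusted p 0.569) and 0.56 ± 0.44 from heterozygous cells (limma adjusted p 0.610).

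Cflar, the brake on caspase-8 activation (1424996_at, its brightest probe set), read 54.1 and 47.8 in wild type cells. It read 30.6, 43.8 and 59.7 in heterozygous cells, and 110, 99.6 and 72.7 in null cells. No null array overlapped a control array. The difference from all controls was 1.01 ± 0.24 (95% interval 0.45 to 1.57), with a limma p of 0.00331 that did not pass after adjustment (0.164). Over all tested probe sets, 3.89% lay with every null array above every control array and 4.3% with every null array below, and 4 and 0 of the 12 member probe sets did so.

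The other 4 Cflar probe sets gave different patterns. Probe set 1425687_at read 10.2 to 14.5 on the controls and 10.3, 37.9 and 116 on the null arrays (1.56 ± 0.66, limma adjusted p 0.428). Probe set 1425686_at read 7.70 to 15.2 on the controls and 9.13, 11.7 and 42.6 on the null arrays (0.64 ± 0.51, limma adjusted p 0.643). In both, null array 1 lay inside the control range and null array 3 far above it. Probe set 1453482_at differed by 0.35 ± 0.35 (limma adjusted p 0.718). Probe set 1449317_at was above background on only 2 arrays and differed by 0.11 ± 0.21 (limma adjusted p 0.855). Cflar and Casp8 are neighbours on chromosome 1, with 0 protein-coding genes between them.

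**Figure D3:**
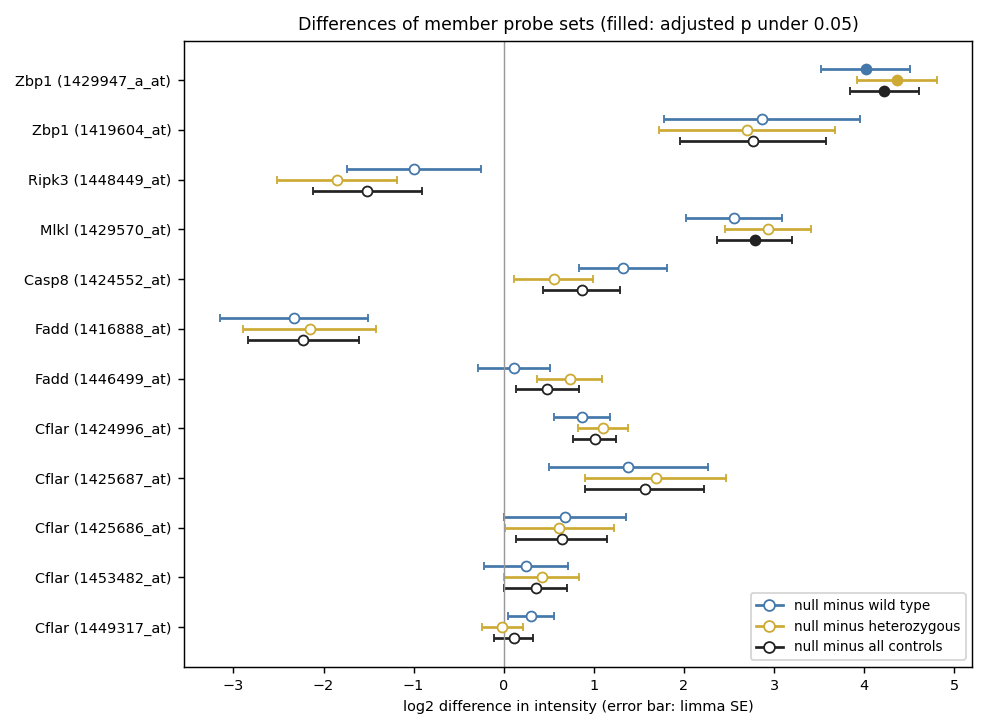
Log2 difference of null from wild type, heterozygous and all control arrays for each member probe set; bars are the limma SE and filled points passed at an adjusted p under 0.05. Zbp1 and Mlkl lie furthest to the right, and the Ripk3 and the brighter Fadd probe sets lie left of 0.

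Heterozygous and wild type cells were compared to ask whether 1 mutated copy of Adar goes with a change in these genes. In limma, 0 of the 12 member probe sets passed, and 0 had an unadjusted p under 0.05, where 0.00222% of all probe sets passed and 5.37% had an unadjusted p under 0.05. The brightest Zbp1 probe set was at background in both genotypes, so no fold is given. The other Zbp1 probe set (1419604_at) was above background on 2 of the 3 heterozygous arrays and differed by 0.17 ± 1.09. The differences were -0.38 for Mlkl, 0.85 ± 0.74 for Ripk3, 0.77 ± 0.49 for Casp8 and -0.24 for Cflar. With 2 wild type arrays these intervals are wide, and the p-values do not show that the genotypes were alike.

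The 3 null arrays did not order the members alike. Null array 1 had the highest value of both Zbp1 probe sets and of the brightest Cflar probe set. Null array 2 had the highest Mlkl, Casp8 and Ripk3 values and the lowest values of the brighter Fadd and the brightest Zbp1 probe sets, while the other Fadd probe set was highest there. Null array 3 had the lowest Mlkl value. Each gene's order is over 3 arrays only and was not tested.

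The genes whose profile over the 8 arrays was nearest to that of Zbp1 were Dhx58, Cmpk2, Tdrd7, Slfn2 and Zup1, among 7483 genes above background on all null arrays. That filter favours genes that are high where Zbp1 is high. All control values of Dhx58 and of the brightest Zbp1 probe set lay at background, so their likeness rests in part on the filter. Likeness was the root mean square difference of log2 profiles, each centred on its own mean: 0.239 for Dhx58, 0.272 for Cmpk2, 0.367 for Tdrd7, 0.379 for Slfn2 and 0.408 for Zup1. Pearson's r over the same 8 arrays was 0.982 to 0.994, and the arrays share genotype, so these are descriptions. Dhx58, a relative of the RNA sensors that detects double-stranded RNA, read 5.01 to 5.72 on the controls and 198, 93.2 and 77.9 on the null arrays. Like Zbp1, it was highest on null array 1, which the choice by likeness favours.

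Nearest to Mlkl were Trim26, Tap1 and Gm12185, at 0.291, 0.34 and 0.387 (Pearson's r 0.97 to 0.98). Tap1, a subunit of the transporter that loads peptides onto MHC class I, read 10.1 to 17.0 on the controls and 107, 171 and 50.5 on the null arrays. As with Mlkl, null array 2 was highest and null array 3 lowest, an order that the choice by likeness favours. The Zbp1 and Mlkl profiles differed from each other by 1.04 on this measure, so neither was among the genes nearest to the other.

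**Figure D4:**
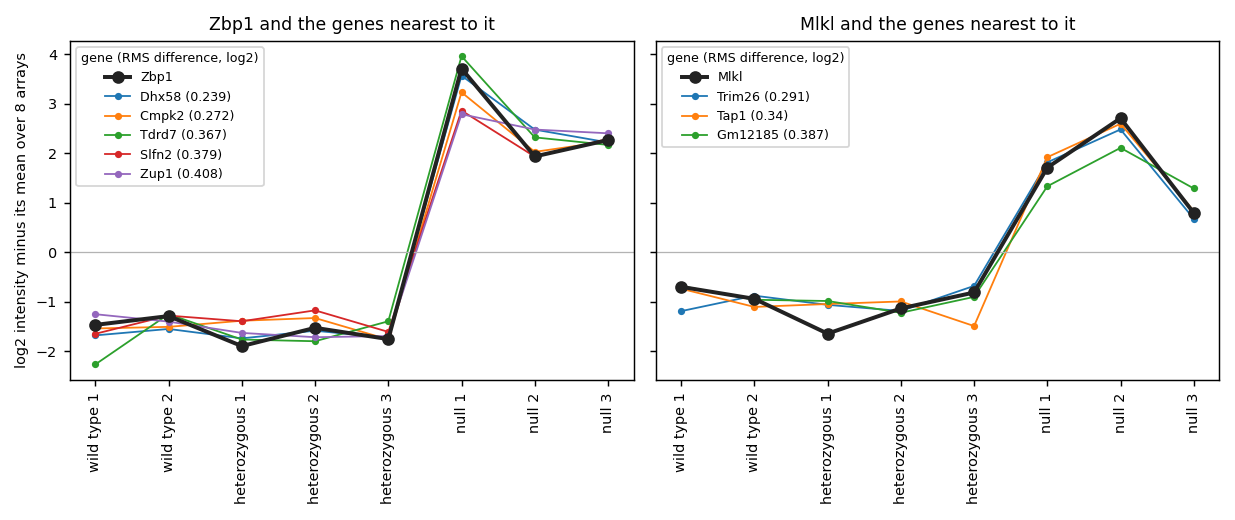
Centred log2 profiles over the 8 arrays of Zbp1 and Mlkl with the genes nearest to each. The Zbp1 group is highest on null array 1 and the Mlkl group on null array 2. The genes were chosen for likeness over these same arrays, so a shared order is favoured by the choice.

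The promoters of the members and of these nearest genes were searched for the core of the interferon-stimulated response element (ISRE), which interferon-activated factors bind. RefSeq windows on GRCm38.p6 were used, from 250 bases before to 50 after each transcript start. The letters searched were GAAA, any 2 bases and GAAA again, on either strand (TTTC, 2 bases and TTTC in reverse), which 3.44% of 32851 windows hold. Zbp1 and Dhx58 had no entry. Of the 6 members with an entry, Ripk1 and Cflar held a match, and Ripk3, Mlkl, Casp8 and Fadd held none. Of the 7 nearest genes with an entry, Tdrd7, Trim26 and Gm12185 held one. Some genes have several windows, and the share above is per window. By window, 2 of 7 held a match for the members and 3 of 9 for the nearest genes. A match is a string of letters, not a shown site. The matches are printed with the motif in capitals and with flanks on both sides, except that the Cflar and Ripk1 stretches end at the motif, to set the member brake Cflar beside genes nearest to Zbp1 and Mlkl.
Cflar, chr1:58711482-58711506, plus strand: tgctgccacgtctgcTTTCGGTTTC
Ripk1, chr13:34002854-34002878, plus strand: cttcaaacgttcccgGAAATCGAAA
Tdrd7, chr4:45972091-45972130, plus strand: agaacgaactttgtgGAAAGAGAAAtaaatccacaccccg
Trim26, chr17:36836971-36837010, plus strand: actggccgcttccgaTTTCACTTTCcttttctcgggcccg
Gm12185, chr11:48927233-48927272, minus strand: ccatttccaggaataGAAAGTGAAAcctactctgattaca
The Cflar match lies 6 to 15 bases after the start, and its window shows the motif on the opposite strand, as Trim26 does. Trim26 has a second match that overlaps the printed one. The letters of the gamma-activated site, TTCNNNGAA, occur in 8.3% of windows, and among these genes in Ripk1 and Gm12185.

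The rest of the pathway was described by lists, each gene by its brightest probe set. None of the 13 measured upstream ligands and receptors passed in null against all controls. Without adjustment, a limma p under 0.05 was reached by 3 higher genes and 1 lower gene, against 5.51% and 7.98% of all genes. Among the 3, Fasl was at background on every array. The list's median difference was -0.16 against 0.03 for all genes. Tlr3, the endosomal receptor for double-stranded RNA, read 6.53 to 12.7 on the controls and 235, 456 and 17.1 on the null arrays. Its difference of 3.85 ± 0.95 did not pass (limma adjusted p 0.175), but it passed without null array 3 (5.26, limma adjusted p 0.0012). Tnfsf10, the death ligand TRAIL, read 39.3, 34.0 and 19.3 on the null arrays. It differed by 1.89 ± 0.34 (limma adjusted p 0.0720), and passed without null array 3 (limma adjusted p 0.0461) or without wild type array 2 (0.0228). Ifnar2, a chain of the type I interferon receptor, differed by -0.58 (limma adjusted p 0.822). Ticam1, the adaptor of Tlr3, was above background on only 3 arrays and at background on every null array. Its difference was -0.53 (limma adjusted p 0.630), which as a bound is at least 1.004-fold lower.

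The checkpoint list holds ubiquitin ligases, deubiquitinases and kinases that act on Ripk1. None of its 22 measured genes passed, and their median difference was -0.08. The largest were Sharpin, a subunit of the linear ubiquitin ligase (-2.11 ± 0.72, limma adjusted p 0.334), the deubiquitinase Otulin (-1.19), Tab3 (-1.15) and Tank (0.96 ± 0.40, limma adjusted p 0.425). None of the 12 measured downstream genes passed against all controls, with a median of 0.09. Gsdmd, a pore-forming protein of pyroptosis, read 15.3, 63.9 and 194 on the null arrays (2.18 ± 0.81, limma adjusted p 0.378). Bid, a caspase-8 substrate, differed by 1.86 ± 0.80, Pgam5 by -1.86 ± 0.45 and Gsdme by -1.27 ± 0.53. None of the 11 measured brakes and membrane repair genes passed, with a median of -0.11. Aurka, a mitotic kinase, differed by -2.33 ± 0.61 (limma adjusted p 0.207), Chmp4b, an ESCRT-III subunit of membrane repair, by 1.26 ± 0.32 (0.184), Vps4b by -1.05 ± 0.44 and Peli1 by 1.0 ± 0.79.

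The last list holds sensors of double-stranded RNA and interferon factors, and also Adar itself. Of its 11 measured genes, 9 passed as higher in null cells against all controls and 0 as lower. Over all genes, 0.555% passed as higher in that comparison. Whether or not they passed, 10 of the 11 were higher and 1 was lower. Against wild type 5 passed as higher, and against heterozygous cells 8 did, where 0.39% and 0.456% of all genes did. Their median difference from all controls was 3.58. Irf7 and Ifih1 had the largest changes, 5.51 ± 0.37 (limma adjusted p 0.000619) and 5.46 ± 0.51 (0.00363). Irf7 is a transcription factor for interferon genes, and Ifih1 encodes the sensor MDA5. Dhx58, at background on every control array, was at least 16.2-fold higher (limma adjusted p 0.000548). Ddx58 (4.20), Stat2 (3.94), Irf1 (3.58), Irf9 (2.91) and Eif2ak2 (2.75) also rose on the log2 scale. Adar, the mutated gene, is among the 9 that passed, and its probe set rose by 3.23 ± 0.41 (limma adjusted p 0.0170). Mavs, the adaptor of these sensors, did not pass, nor did Irf3 (-1.42 ± 0.29, limma adjusted p 0.105).

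**Figure D5:**
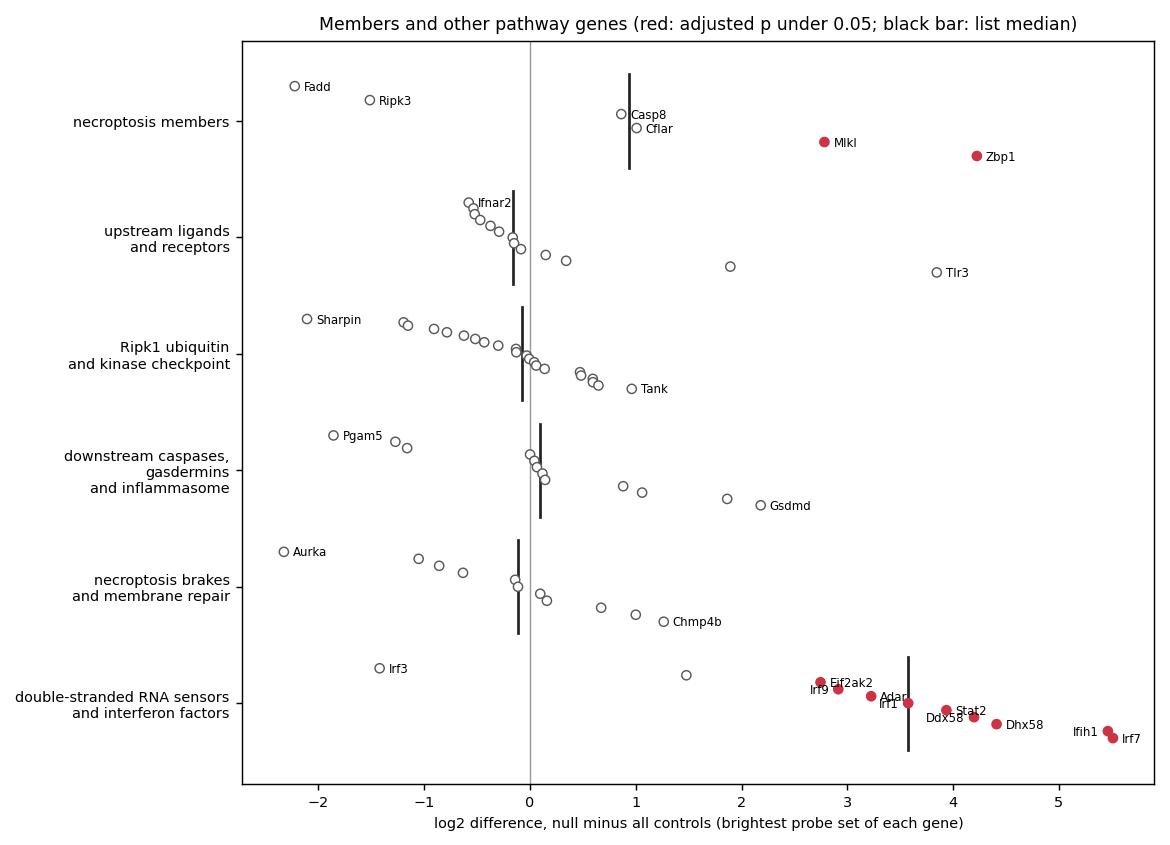
Log2 difference of null from all control arrays for each gene of the pathway lists by its brightest probe set, with those that passed marked. The sensors and interferon factors, with Adar counted among them, lie mostly above 2, with 9 of 11 passing. The upstream, checkpoint, downstream and brake lists scatter around 0 with none passing.

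Markers of other cells were read beside these results. The summed level of 12 macrophage genes was 173 to 695 on control arrays and 80.1 to 95.2 on null arrays. On all null arrays 7 of the 12 were at background: Csf1r, Cd68, C1qa, C1qc, Mrc1, Adgre1 and Cd5l, of which Adgre1 and Cd5l were at background on the controls too. C1qa was above background on only 2 arrays and differed by 0.01 from all controls. Of the 12 macrophage genes 0 passed against all controls, 4 were higher and 8 lower, and their median difference was -0.29. The sum of 10 hepatocyte genes was 217 to 1102 on controls and 76.5 to 104 on null arrays, and Afp fell by 5.11 (limma adjusted p 0.0403). The macrophage and hepatocyte sums did not overlap between null and control arrays. Bright genes weigh most in these linear sums. C1qb read 434 of the 695 on wild type array 2, and Afp read 617 of the 1102 on heterozygous array 1. Of the 10 hepatocyte genes, Afp alone passed against all controls, 2 were higher and 8 lower, and their median difference was -0.74. The sums of granulocyte (221 to 543 on controls and 108 to 249 on null arrays), endothelial and stromal (242 to 415 and 409 to 559), erythroid (814 to 1582 and 736 to 1117), lymphoid (51.7 to 82.8 and 57.6 to 90.3) and stem and progenitor genes (683 to 1186 and 773 to 991) overlapped. Of the 10 granulocyte genes, Lyz2 alone passed (it fell by 2.54, limma adjusted p 0.0207), 6 were higher and 4 lower, and their median difference was 0.04. The part of these markers in the Zbp1 and Mlkl results was not tested. Nor was it for Ripk3 and the brighter Fadd probe set, whose null means were lower without passing.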

How the data were processed

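RNA from sorted Lin-Sca+Kit+ fetal liver cells of 8 mice was amplified with a Nugen kit, per the labels' protocols, and hybridised to Affymetrix mouse arrays. The authors deposited 1 table of intensities on a linear scale, summarised with RMA per the submitters' processing notes; the software version is not given in the sources used here. Its 45101 probe sets include 64 controls, which were left out. Of the others, 34945 name 1 gene, 932 several and 9160 none, and 34741 symbols were matched to current ones by gene ID. Titles gave the genotypes.

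Log2 intensities were fitted with limma 3.58.1 in R 4.3.3 (lmFit and eBayes, two-sided), in a 3-genotype model with 5 residual degrees of freedom and, for null against all controls, a 2-group model with 6. P-values were Benjamini-Hochberg adjusted over 45037 probe sets. The fit was run on simulated arrays with known shifts, to check that it returned their size. The simulated noise was independent and held no array effect, so that run cannot vouch for the calls on these arrays. Where a group lay at background on every array, the fold is a bound: the bright group's mean against, per array, the higher of background and the probe set's own value. Array data carry no counts, and the small number of arrays limits the precision.

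The members, the gene lists and the tests were chosen with earlier results of these data known. Named were all member probe sets, up to 4 genes per list with the largest differences, every listed gene that passed, Adar, the 5 genes nearest to Zbp1 and the 3 nearest to Mlkl. Alternatives were quantile and cyclic loess normalization, 32 added before log2, 2 filters on dim probe sets, the mean of a gene's probe sets, array weights, a trended robust prior, only the arrays compared, and each array left out. There were 0 unused sample columns.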

Additional observations from a re-analysis of the deposited data

Results flagged for a closer look

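Among the 5 control arrays, the Ripk3 reading of 19.9 on wild type array 1 stood apart from the others, which lay between 49.6 and 64.1. The check used log2 values, not the linear readings printed here. On the log2 scale the gap of wild type array 1 to the next array was 0.781 of the whole range. Dixon's critical value for 5 samples is 0.71. The control groups of the 12 member probe sets were tested in this way, and chance marks about 1 group in 20. Without that array the difference of null from all controls was -1.81 ± 0.55, with a limma adjusted p of 0.358. Groups of 2 or 3 arrays were not tested.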

How the results depend on the processing

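Of the alternatives for single member probe sets, 724 kept direction and side of the threshold, 25 lost the call, 9 gained one and 18 changed sign. The sign of Zbp1 and Mlkl in null against each control group did not change in any alternative run. Member genes past the threshold against all controls numbered 0 with 32 added and 1 with array weights, and 1 to 2 with an array left out. Against wild type they numbered 0 with quantile or cyclic loess normalization, 32 added, the mean of probe sets or only the compared arrays, and 0 to 1 with an array left out. Against heterozygous cells they numbered 2 with quantile normalization, cyclic loess or the filter at the median level, 0 with 32 added, and 0 to 2 with an array left out; with an array left out, heterozygous against wild type gave 0. Probe sets past the threshold, of 262 against all controls, ranged from 156 (without heterozygous array 1) to 792 (without null array 2). Of 147 against wild type, 62 were left with 32 added, 90 with array weights and 4 with only the compared arrays, and 65 to 340 with an array left out. Of 226 against heterozygous cells, 126 were left with 32 added and 130 with the trended robust prior, and 63 to 581 with an array left out. The 1 probe set between heterozygous and wild type became 5 with 32 added, 0 with the median filter, the mean of probe sets or only the compared arrays, and 0 to 164 with an array left out. The cause was not tested.

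Sign changes were limited to probe sets that had not passed. With cyclic loess, Cflar 1425686_at was -0.04 in heterozygous minus wild type. With an array left out, null minus all controls ranged from -0.08 to 0.62 (Cflar 1453482_at), -0.04 to 1.07 (1425686_at) and -0.08 to 0.23 (1449317_at). Null minus wild type ranged from -0.28 to 0.51 (Fadd 1446499_at) and -0.19 to 0.68 (Cflar 1453482_at), and null minus heterozygous from -0.01 to 0.69 (1453482_at), -0.06 to 1.05 (1425686_at) and -0.21 to 0.16 (1449317_at). Heterozygous minus wild type ranged from -0.36 to 0.49 (1425686_at), -0.61 to 0.26 (1453482_at), -1.39 to 1.04 (Fadd) and -0.47 to 0.01 (Cflar). Over the alternatives, the sensors and interferon factors, with Adar counted among them, varied in how many passed as higher. They numbered 8 to 9 against all controls, 0 to 8 against wild type and 3 to 9 against heterozygous cells. Pgam5 passed as lower against wild type without wild type array 1 (limma adjusted p 0.0432), and Gsdme against heterozygous cells without null array 2 (0.0494). No paired analysis was possible because the labels carry no replicate numbers shared between genotypes. Signal limits Zbp1 in the controls, where its brightest probe set lay at background on all 5 arrays.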
